A study of Homo sapiens with 6 samples.

Results

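Epithelial antimicrobial and acute-phase genes were followed in a bladder cancer cell line exposed to an antibody-drug conjugate. The 9 genes were taken by name: SAA1, SAA2, LCN2, SLPI, PI3, S100A7, S100A8, S100A9 and NOS2. The rule uses names and no measured value, but the 9 genes were chosen with earlier results of these data known. Of them, 9 of 9 were among the 16390 genes listed. RNA of SW780 cells, a human bladder cancer line of luminal type, was sequenced in 6 libraries. Of these, 3 were labelled Control and 3 came from stable SW780 cells exposed to RC48 at 25 µg/ml. RC48 (disitamab vedotin) joins an antibody against ERBB2, the HER2 receptor, to a drug that disrupts microtubules. The length of the exposure and the treatment of the Control cells are not given in the sources used here, and all libraries are of 1 cell line. Nothing in the labels ties the replicates to separate cultures, so the p-values measure only the spread between these libraries, which may be technical.

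Surfaces such as the urothelium protect themselves with secreted proteins. Some starve microbes of metals (lipocalin-2 by binding their siderophores, the calgranulins S100A8 and S100A9 by binding zinc and manganese), and others block the proteases that microbes and neutrophils release (SLPI and elafin, the product of PI3). Serum amyloid A, encoded by SAA1 and SAA2, is made in quantity by the liver in the acute phase and also by epithelia, and NOS2 encodes the inducible nitric oxide synthase. Many of these genes are known targets of NF-κB, C/EBP factors and STAT3 downstream of IL-17, IL-1, IL-6 and IL-22.

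Of the 9 genes, LCN2 and S100A9 rose, and SLPI, per length the most abundant of them in Control, showed no detectable change. LCN2 went from 1.36 ± 0.288 to 44.6 ± 4.0 CPM (counts scaled to a common library size, mean ± SD, n = 3 libraries per group), a ratio of 32.9. S100A9 went from 19.5 ± 2.66 to 53.9 ± 4.24 CPM, a ratio of 2.76. SAA1, SAA2, PI3 and S100A8 were at or near 0 in Control and at 0.483 to 1.42 CPM in RC48, on few counts. NOS2 and S100A7 stayed near the limit of detection in both groups.

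CPM divides the estimated counts of a gene, rounded to whole numbers, by the library's total after TMM scaling. Differences were tested with edgeR's quasi-likelihood test across all genes that passed a filter on low counts, and an adjusted p under 0.05 was called. Over the 13055 genes tested, 2.21% were called, 1.98% as higher and 0.23% as lower in RC48. Of the 9 genes, 5 entered the test, and 4 of them were called, all higher in RC48. SAA1 and SAA2 passed the filter only through their RC48 libraries, so the count of 4 of 5 carries no weight of its own. The 3 genes with enough counts in both groups were LCN2, S100A9 and SLPI, and the first 2 of these were called. In 6 of the 9 genes the lowest RC48 library exceeded the highest Control library (SAA1, SAA2, LCN2, PI3, S100A8 and S100A9). The same held for 15.5% of all genes listed. Since the 9 genes were chosen with earlier results known, their counts cannot be weighed against the shares of all genes.

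**Figure D1:**
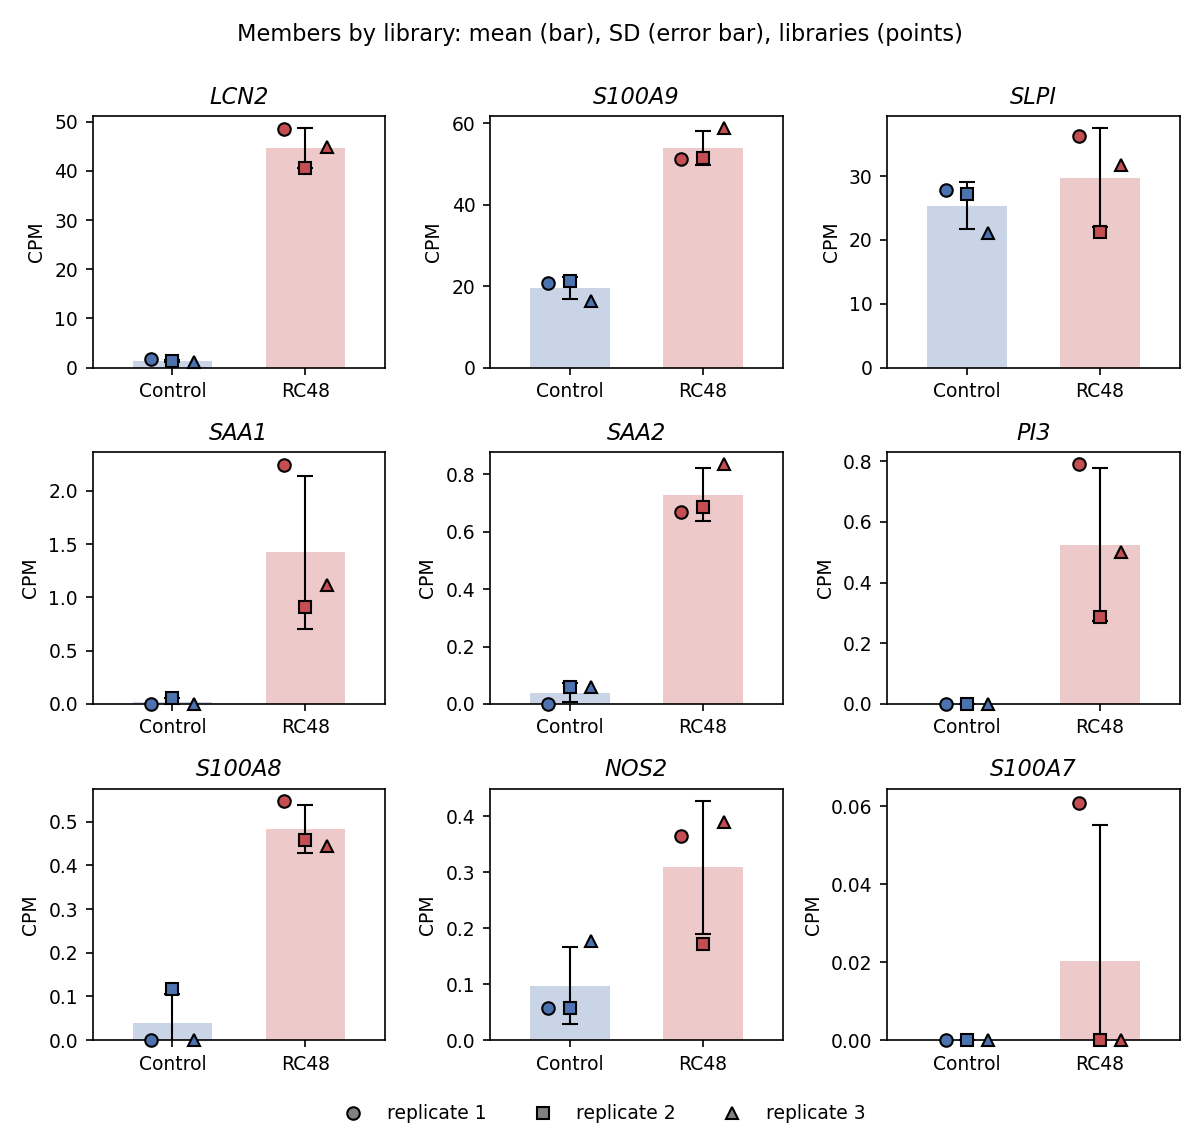
Level of each of the 9 genes in CPM, on a linear axis of its own that starts at 0, with points for libraries, bars for the mean of 3 libraries and error bars for the SD. LCN2 and S100A9 are separated between the groups, SLPI overlaps, and the lower 2 rows of panels are at most 2.25 CPM in any library.

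The libraries held 16453233 to 17988030 counts in all, so 1 count was worth about the same in each. Log2 ratios to the mean Control rose with the GC content of the transcripts in RC48 replicate 1 (Spearman rho 0.742 across 13000 genes) and RC48 replicate 3 (rho 0.571), but not in RC48 replicate 2 (rho -0.0147). The 9 genes had a GC content of 49.4% to 57.3%. Under a correction for this trend LCN2 and S100A9 stood at log2 fold changes of 4.89 and 1.31. Keratins of simple epithelium marked the line in both groups, with KRT8 at 2096.6 ± 130.5 and 2277.3 ± 263.6 CPM in Control and RC48 (n = 3 each). In bulk RNA, a change in the share of cells that express a gene and a change in RNA per cell cannot be told apart.

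The siderophore-binding protein is encoded by LCN2 (gene 3934, chr9:128149453-128153453 in RefSeq on GRCh38.p14). It was measured at 1.68, 1.27 and 1.12 CPM in Control replicates 1, 2 and 3, and at 48.5, 40.5 and 44.9 CPM in RC48 replicates 1, 2 and 3. The lowest RC48 library stood far above the highest Control library, and each group was tight. The Control values rest on 29, 22 and 19 counts, and the RC48 values on 799, 710 and 806. The log2 fold change was 5.03 (SE 0.20, adjusted p = 6.1e-05, edgeR), and LCN2 ranked 2 by p-value among all genes tested. It was called under all 17 alternatives tried, at log2 fold changes of 4.58 to 5.21, although these settings called between 0.515% and 61.4% of all genes. In the 5 libraries with deposited TPM (a transcript level scaled for both gene length and library size), LCN2 was at 5.69, 4.28 and 4.18 in Control and at 128.3 and 142.4 in RC48. On that scale 35.4% to 39.8% of all genes lay below LCN2 in the Control libraries, and 92.1% and 92.9% in the RC48 libraries.

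LCN2 and S100A9 were the genes that the test called on ample counts, and RefSeq start sites were at hand for both, so their upstream stretches are shown from the plus strand of GRCh38.p14, each ending on the base before the start site. For LCN2 the stretch is chr9:128149265-128149452, where 62 bases farther upstream that lie in an exon of another LCN2 transcript were left out. For S100A9 it is chr1:153357604-153357853. Capitals mark the motif matches named after the sequences.
LCN2 upstream: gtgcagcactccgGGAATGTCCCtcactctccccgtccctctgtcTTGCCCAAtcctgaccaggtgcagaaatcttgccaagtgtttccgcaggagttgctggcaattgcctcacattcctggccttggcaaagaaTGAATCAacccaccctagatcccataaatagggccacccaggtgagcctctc
S100A9 upstream: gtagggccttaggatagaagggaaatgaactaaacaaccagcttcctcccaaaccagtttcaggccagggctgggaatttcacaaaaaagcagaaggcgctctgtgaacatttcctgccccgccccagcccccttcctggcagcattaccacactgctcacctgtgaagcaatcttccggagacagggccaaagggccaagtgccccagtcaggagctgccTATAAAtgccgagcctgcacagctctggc

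In 250 bases before each start site, 5 motifs were searched on both strands: the κB consensus, TTGCNNAA (C/EBP), TTCNNNGAA (STAT), TGANTCA (AP-1) and TATAAA. The LCN2 stretch held a match to the κB consensus starting 175 bases before the start site, on the minus strand, one to TTGCNNAA at 143 bases and one to TGANTCA at 52 bases, and these do not overlap. Of 34943 start sites in the same table, 5.20% had a κB match, 9.06% TTGCNNAA, 6.56% TTCNNNGAA, 6.59% TGANTCA and 10.8% TATAAA. The S100A9 stretch held TATAAA at 29 bases and none of the other letters. S100A7 also held TATAAA at 28 bases. In S100A8 the same match lay 29 bases from the second and 126 bases from the third of its 3 annotated start sites. The windows of S100A7 and of these S100A8 start sites overlap annotated exons of the same gene by 50, 115 and 148 bases. A match describes letters, not binding, and SAA1, SAA2, SLPI, PI3 and NOS2 were not analysed here in this way.

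The calgranulins S100A8 and S100A9 form calprotectin, the metal-binding heterodimer that is abundant in neutrophils and in stressed epithelium. S100A9 (gene 6280, chr1:153357854-153361023) was measured at 20.8, 21.3 and 16.5 CPM in Control replicates 1 to 3 and at 51.3, 51.6 and 58.8 CPM in RC48 replicates 1 to 3. The groups did not overlap, with the lowest RC48 library more than 2 times the highest Control library. The log2 fold change was 1.46 (SE 0.15, adjusted p = 0.00301, edgeR). It was called under all 17 alternatives, at 1.09 to 1.53, and the lowest value came from the TPM scale. There S100A9 stood at 138.9, 138.9 and 121.7 TPM in Control and at 228.7 and 350.5 TPM in RC48, a ratio of means of 2.17, and the 2 RC48 libraries differed widely.

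Its partner S100A8 (gene 6279, chr1:153390032-153422583) was at 0, 2 and 0 counts in Control and at 9, 8 and 8 counts in RC48. The groups did not overlap, and the RC48 libraries were alike. The ratio of summed counts, scaled for library size, was 12.4 with an exact 95% interval of 3.09 to 108.0, which covers counting error only. It was 8.24 without Control replicate 1. Without Control replicate 2, which held both Control counts, it was 5.50 against the floor of 3 counts over the group. That floor leaves out counting error in RC48. S100A8 was too low to enter the filtered test. Without the filter its adjusted p was 0.0902 (edgeR), in a fit that called 1.69% of all genes. In the same fit with the correction for GC content, chosen after the data were seen, it was 0.0348 (edgeR), where 5.83% of all genes were called. Per length, S100A9 exceeded S100A8 by 50.8 times and 63.5 times in RC48 replicates 1 and 3. Calprotectin's genes were thus measured at very unequal levels in these cells.

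S100A7 (psoriasin, gene 6278, chr1:153457744-153460651), an antibacterial S100 protein of squamous epithelium, was at 0 counts in every library but RC48 replicate 1, which had 1 count. A count of 0 over the 3 libraries of a group allows up to 3 counts, so no fold is given.

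SAA1 (gene 6288, chr11:18266264-18269967) and SAA2 (gene 6289, chr11:18238236-18248668) encode the acute-phase serum amyloid A proteins. They are close copies, and the coding sequences of their first GENCODE transcripts are shown because that likeness limits how reads can be assigned. Bases 181 to 369 of the coding sequence are shown, which hold 10 of the 11 positions that differ, and the other is base 43. The coding sequence was joined over 3 exons within chr11:18266888-18269855 (plus strand) for SAA1 and chr11:18245377-18248011 (minus strand) for SAA2, on GRCh38. Capitals mark the positions that differ.
SAA1 coding, bases 181 to 369: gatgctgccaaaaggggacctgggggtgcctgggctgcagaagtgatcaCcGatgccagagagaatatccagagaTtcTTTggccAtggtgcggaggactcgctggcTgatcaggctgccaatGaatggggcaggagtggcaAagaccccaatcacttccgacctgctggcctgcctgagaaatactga
SAA2 coding, bases 181 to 369: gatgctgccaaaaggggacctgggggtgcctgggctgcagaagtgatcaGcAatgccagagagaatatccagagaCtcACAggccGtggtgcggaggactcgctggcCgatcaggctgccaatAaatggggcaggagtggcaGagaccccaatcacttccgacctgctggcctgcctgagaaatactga

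The full coding sequences are each 369 bases long, encode 122 residues before the stop codon, and differ at 11 positions (97.0% identity). The longest identical run is 186 bases, and 42.8% of the 50-base windows of SAA2 occur unchanged in SAA1. RSEM divides reads that match several genes between them by estimation, so the split between SAA1 and SAA2 is uncertain.

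SAA1 was estimated at 0, 1 and 0 counts in Control and at 36.84, 15.98 and 20 counts in RC48. RC48 replicate 1 was the highest, and the groups did not overlap. The scaled ratio of the summed counts was 72.4 (exact 95% interval 12.6 to 2899.8). The fitted log2 fold change was 5.74 (SE 0.82, adjusted p = 0.0130, edgeR), but the call was lost without Control replicate 1 (log2 fold change 5.29, adjusted p = 0.0794), without Control replicate 2 (7.62, 0.0911) and without Control replicate 3 (5.30, 0.120). Without replicate 2 Control is at 0, and the ratio of summed counts becomes 16.1 against the floor of 3 counts over the group. That floor leaves out counting error in RC48. The ratio was 48.1 without Control replicate 1. On log2(TPM + 1) in 5 libraries the difference was 2.90.

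SAA2 was at 0, 1 and 1 counts in Control and at 11.16, 11.84 and 14.93 counts in RC48. The RC48 libraries were close to each other and all above Control. The scaled ratio was 18.9 (exact 95% interval 4.87 to 161.3), and 12.5 without Control replicate 1. The fitted log2 fold change was 4.0 (SE 0.56, adjusted p = 0.0128, edgeR), and the call was lost when any Control replicate (adjusted p = 0.0611, 0.0836 and 0.0956 without replicates 1, 2 and 3) or RC48 replicate 3 (0.0797) was left out. On log2(TPM + 1) in 5 libraries the difference was 1.45. With the counts of both genes summed before the fit, which removes the uncertain split, the log2 fold change was 5.04 (SE 0.57, adjusted p = 0.00477, edgeR). The ratio of SAA1 to SAA2 counts was 3.30, 1.35 and 1.34 in RC48 replicates 1, 2 and 3. SAA4, the constitutive member of the family, had 2 counts in RC48 replicate 1 and 0 in the other libraries, and the readthrough gene SAA2-SAA4 reached at most 3.18 counts.

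SLPI and PI3 encode WAP-domain inhibitors of neutrophil elastase and related proteases. SLPI (gene 6590, chr20:45252239-45254564) was measured at 27.8, 27.2 and 21.1 CPM in Control and at 36.3, 21.2 and 31.7 CPM in RC48. The groups overlapped, with RC48 replicate 2 at the level of the lowest Control library. The log2 fold change was 0.23 with a 95% interval of -0.28 to 0.74 (adjusted p = 0.508, edgeR), so a rise of up to 0.74 on the log2 scale was within the error. It was called only under limma voom with sample quality weights (log2 fold change 0.22, adjusted p = 0.0290), where 61.4% of all genes were called. SLPI per length was at 170.5, 163.0 and 142.8 TPM in Control and at 152.1 and 174.6 TPM in RC48, a ratio of means of 1.03.

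PI3 (gene 5266, chr20:45174902-45176544) was at 0 counts in all 3 Control libraries and at 13, 5 and 9 counts in RC48. All RC48 libraries had counts and no Control library did. Against the floor of 3 counts over the Control group, the ratio for PI3 was 8.93. It was 5.93, 5.94 and 5.99 without Control replicates 1, 2 and 3. These ratios take the RC48 counts as observed, so counting error in RC48 is left out. PI3 did not enter the filtered test, and without the filter its adjusted p was 0.0606 (edgeR). With the added correction for GC content and no filter it was 0.0186. The inhibitors thus stood apart in their values, since the abundant SLPI overlapped between the groups and the rare PI3 did not.

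NOS2 (gene 4843, chr17:27756766-27800529) was at 1, 1 and 3 counts in Control and at 6, 3 and 7 counts in RC48. The groups overlapped in CPM, since Control replicate 3 (0.177 CPM) lay above RC48 replicate 2 (0.171 CPM). The scaled ratio was 3.18 (exact 95% interval 1.11 to 11.1), and 5.32 without Control replicate 3. Without the filter the adjusted p was 0.282 (edgeR). At this depth a change in NOS2 beyond the spread between libraries was not detectable.

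A two-sided exact permutation test on log2(CPM + 1) gave p = 0.1 for SAA1, SAA2, LCN2, PI3, S100A8 and S100A9, the smallest that 3 against 3 libraries allow. By the same exact permutation test, p was 0.2 for NOS2, 0.4 for SLPI and 1 for S100A7.

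**Figure D2:**
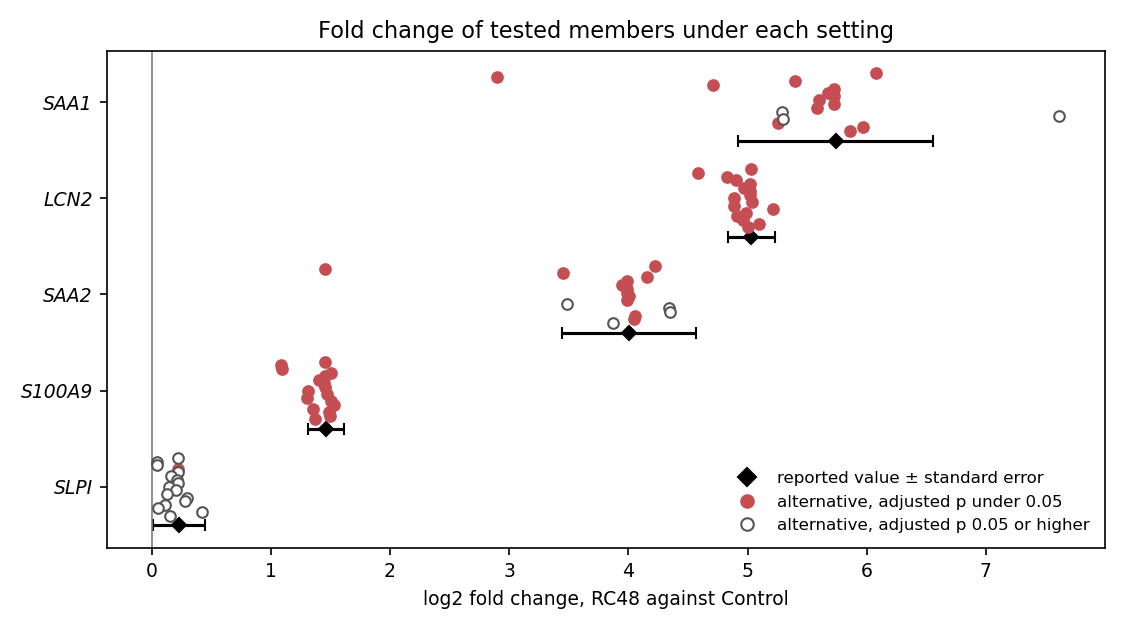
Log2 fold change of the 5 tested genes, RC48 against Control, with black diamonds for the reported values (bars, standard error), filled circles for alternatives with an adjusted p under 0.05 and open circles for the others. All circles of LCN2 (4.58 to 5.21) and S100A9 (1.09 to 1.53) are filled, SAA1 and SAA2 have open ones where a library was left out, and SLPI has 1 filled circle.

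Summed over the 9 genes, the libraries had 50.4, 50.1 and 38.9 CPM in Control and 140.9, 115.8 and 138.6 CPM in RC48. The make-up of this sum, which also reflects transcript length, differed too. SLPI took 54.2% to 55.2% of the summed counts in Control and 18.3% to 25.8% in RC48. LCN2 took 2.55% to 3.33% in Control and 32.4% to 35.0% in RC48. S100A9 kept a like share, at 41.3% to 42.6% and 36.4% to 44.5%.

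**Figure D3:**
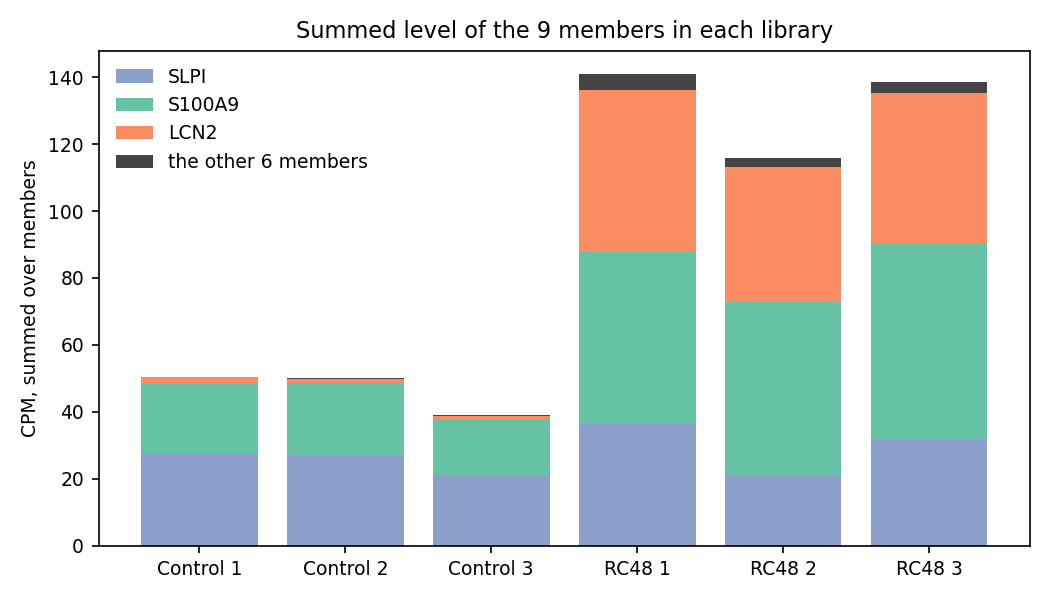
Summed level of the 9 genes in each of the 6 libraries, in CPM on a linear axis from 0, with segments for SLPI, S100A9, LCN2 and the other 6 genes. The sum is 38.9 to 50.4 CPM in Control and 115.8 to 140.9 CPM in RC48, and the LCN2 segment is thin in Control and close to the S100A9 segment in RC48.

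By TPM, which compares genes per length, the order in Control was SLPI, S100A9 and LCN2 in all 3 libraries, with the other 6 genes at 1.04 TPM or less. SLPI (142.8 to 170.5 TPM) and S100A9 (121.7 to 138.9 TPM) were neighbours whose ranges did not overlap by a small margin. In both RC48 libraries with TPM the order was S100A9, SLPI, LCN2, SAA1, S100A8, PI3 and SAA2. SAA1 at 9.18 and 6.04 TPM, S100A8 at 4.50 and 5.52 TPM, PI3 at 3.75 and 3.24 TPM and SAA2 at 1.70 and 2.65 TPM kept this order in both, but these levels rest on few counts. NOS2 was at 0.15 and 0.17 TPM.

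Genes whose pattern over the 6 libraries was most like a called gene were sought. The measure was the smallest root-mean-square difference of log2(CPM + 1), each gene centred on its Control mean. The 1 added to CPM shrinks changes at low levels, so genes alike on this scale can differ widely in fold change. For LCN2 they were LTB (lymphotoxin beta, difference 0.473), C3 (the central complement component, 0.541) and IL32 (an inflammatory cytokine, 0.549). C3 went from 1.28 ± 0.205 to 25.9 ± 6.37 CPM (n = 3 libraries each). LTB had no count in Control and 11.5 ± 1.36 CPM in RC48 (n = 3 libraries). For S100A9 they were PLAU (urokinase, 0.152), IL7R (the interleukin-7 receptor, 0.153) and TAGLN (transgelin, 0.165). IL7R went from 0.155 to 1.80 CPM on average, a log2 fold change of 3.48 against 1.46 for S100A9. PLAU went from 144.1 ± 7.23 to 366.0 ± 42.0 CPM (n = 3 libraries each). For SAA1, whose level near 1 CPM leaves a small rise on this scale, they were SDCBP2 (0.0316), LOXL2 (0.0483) and EFNA1 (0.0622). Their log2 fold changes were 1.30 to 1.33, against 5.74 for SAA1. SAA2 stayed under 1 CPM and was not ranked.

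Other genes were read from 11 lists, of related functions or of cell type markers, against 2.21% of all genes called and a median log2 fold change of 0.02 over all genes tested. The lists are described by counts and medians, with no test of a list. A list gene that passed the filter only through its RC48 libraries had to stand higher there, and such genes are named. The reverse holds for genes that passed only through Control, and those called are named. Counts under the correction for GC content, which called 7.52% of all genes (edgeR), are given where they differ.

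Among other epithelial antimicrobial proteins, 23 of 38 were listed and 13 tested, of which CCL20 and ADM rose and 0 fell. RNASE7, CCL20, PIGR and DUOX2 passed the filter only through RC48, so the count carries no weight. The 6 with enough counts in every library had a median log2 fold change of 0.36, and 1 of them rose. Under the correction for GC content CCL20 and DUOX2 were called. CCL20, a chemokine with direct antibacterial activity, went from 0.0975 ± 0.0686 to 3.64 ± 0.619 CPM (log2 fold change 5.13, SE 0.39, adjusted p = 6.4e-04, edgeR). ADM, the peptide adrenomedullin, went from 16.3 ± 0.590 to 28.6 ± 3.98 CPM (log2 fold change 0.81, adjusted p = 0.0394, edgeR), a call that held under only 6 of 17 alternatives and was lost without any one of the Control libraries or RC48 replicate 3. DUOX2, an oxidase that makes hydrogen peroxide at epithelial surfaces, was at 0.371 and 2.14 CPM on average (adjusted p = 0.0696, edgeR). DEFB1, a constitutive beta-defensin, had 4 counts in Control and 16 in RC48 and was not tested.

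Among other acute-phase genes, not all of them for plasma proteins, 15 of 24 were listed and 9 tested, of which 3 rose and 0 fell (median 0.61). With the correction for GC content, which added CP and F3, 5 rose and 0 fell. SERPINA1, the inhibitor of neutrophil elastase in plasma, went from 1.98 ± 0.355 to 16.1 ± 2.42 CPM (log2 fold change 3.02, SE 0.21, adjusted p = 5.6e-04, edgeR). PTX3, a long pentraxin that binds microbes, went from 18.3 ± 1.96 to 69.9 ± 2.29 CPM (log2 fold change 1.93, SE 0.13, adjusted p = 5.7e-04, edgeR). Both were called under all 17 alternatives. MT2A, a metallothionein, went from 55.6 ± 8.21 to 179.5 ± 86.7 CPM (adjusted p = 0.0410, edgeR), and that call was lost without any one of the Control libraries or RC48 replicate 3 (highest adjusted p 0.268, edgeR). CP, ceruloplasmin, was at 17.2 and 20.5 CPM on average and was not called without that correction (adjusted p = 0.393, edgeR).

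Among other S100 proteins, 14 of 17 were listed and 10 tested by edgeR, and 0 were called in either direction (median 0.17), with 1 at an unadjusted p under 0.05. S100A2 was at 642.2 ± 83.5 and 1060.9 ± 588.6 CPM (adjusted p = 0.28, edgeR), and S100A6 at 820.2 ± 93.7 and 920.8 ± 299.5 CPM (adjusted p = 0.638, edgeR). These had the highest mean CPM over both groups together, and the RC48 libraries were widely spread in both. S100A11 at 722.3 CPM stood above S100A2 in Control, and the RC48 mean of S100A2 was raised by replicate 1 at 1733.9 CPM. S100A12, the third calgranulin, had 0 counts in Control and 13 in RC48 and was not tested.

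Among other WFDC and epithelial protease inhibitors, 17 of 21 were listed and 7 tested, of which 1 rose and 0 fell (median 0.27), against 3 risen and 0 fallen with the correction for GC content, which added SPINT1 and CSTB. CST6, cystatin M/E, went from 13.8 ± 2.25 to 32.3 ± 7.70 CPM (log2 fold change 1.22, adjusted p = 0.0321, edgeR), a call lost without any one of the Control libraries or RC48 replicate 3 (highest adjusted p 0.199, edgeR). WFDC2, a WAP-domain protein like SLPI, had 1 count in Control and 3 in RC48.

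Nitric oxide synthesis and arginine handling, the setting of NOS2, had 17 of 17 genes listed and 15 tested, of which 2 rose and 0 fell (median 0.22), against 4 risen and 0 fallen with the correction for GC content, which added DDAH1 and DDAH2. SLC7A2, an importer of arginine, went from 7.07 ± 0.662 to 29.7 ± 2.49 CPM (log2 fold change 2.07, SE 0.15, adjusted p = 6.0e-04, edgeR) and was called under all 17 alternatives. ASS1, which rebuilds arginine from citrulline, went from 5.76 ± 0.491 to 19.0 ± 4.94 CPM (log2 fold change 1.72, adjusted p = 0.00705, edgeR), and the call was lost without any one of the Control libraries (highest adjusted p 0.0901, edgeR). GCH1, the first enzyme of the synthase's cofactor, was at 39.1 and 30.8 CPM on average and was not called (adjusted p = 0.301, edgeR).

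Receptors that bind the 9 genes' products had 13 of 13 genes listed and 8 tested by edgeR, and 0 were called (median 0.05), with 2 at an unadjusted p under 0.05. With the correction for GC content CD36 was called as lower, but it passed the filter through Control and lacked enough counts in RC48 replicate 1. BSG was at 428.0 and 471.1 CPM and NPTN at 121.9 and 111.4 CPM on average. TLR4, a receptor for S100A8 and S100A9, was at 98.3 and 90.4 CPM on average (adjusted p = 0.694, edgeR).

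Factors and receptors known to induce these genes were read in a list that also held ZC3H12A, which is not an inducer. Of its genes 28 of 28 were listed and 27 tested, of which 2 rose and 1 fell (median 0.33). With the correction for GC content 7 rose and 1 fell. The 2 that rose were ZC3H12A and STAT3, so STAT3 was the only inducer called as higher without that correction. ZC3H12A, the RNase regnase-1 that limits inflammatory transcripts, went from 47.7 ± 2.01 to 217.5 ± 24.6 CPM (log2 fold change 2.19, SE 0.13, adjusted p = 3.4e-04, edgeR), called under all 17 alternatives. STAT3 went from 157.7 ± 15.1 to 241.2 ± 9.38 CPM (log2 fold change 0.61, adjusted p = 0.0440, edgeR), and IL6R, the interleukin-6 receptor, from 6.62 ± 0.542 to 3.48 ± 0.446 CPM (log2 fold change -0.93, adjusted p = 0.0411, edgeR). The STAT3 call held under 7 of 17 alternatives and that of IL6R under 12, and both were lost without any one of the Control libraries or RC48 replicate 3. NFKBIZ, the cofactor through which NF-κB acts on LCN2, was at 113.3 and 120.3 CPM on average (adjusted p = 0.690, edgeR). CEBPB and CEBPD had log2 fold changes of 0.33 and 0.52 and were not called (adjusted p = 0.272 and 0.268, edgeR). IRF1, NFKB1 and RELA were at 0.53, 0.37 and 0.16. Without the correction for GC content these were not called either (adjusted p = 0.0583, 0.154 and 0.371, edgeR). In CEBPB, IRF1, NFKB1 and RELA every RC48 library exceeded every Control library, as in 15.5% of all genes listed. Of the 27 tested, 20 had a log2 fold change above 0, against 6710 of 13055 over all genes.

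Squamous differentiation genes, which S100A7, S100A8, S100A9 and PI3 often accompany, had 25 of 32 listed and 17 tested, of which 2 rose and 0 fell. With the correction for GC content 2 rose and 4 fell, the latter being IVL, KRT13, KLK6 and KLK8. The 15 with enough counts in every library had a median of 0.02 without that correction. KRT17, a keratin of stressed and basal epithelium, went from 627.3 ± 50.5 to 1477.1 ± 524.9 CPM (log2 fold change 1.24, adjusted p = 0.0460, edgeR). SPRR1A, a cornified envelope protein that passed the filter only through RC48, went from 0.271 ± 0.120 to 1.07 ± 0.235 CPM (adjusted p = 0.0482, edgeR). Both calls were lost without any one of the Control libraries or RC48 replicate 3 (highest adjusted p 0.282 and 0.252, edgeR), and that of SPRR1A also with library sizes alone and with no filter, so that it held under 10 of 16 alternatives. KRT6A was at 3.90 and 3.45 CPM and KRT5 at 6.09 and 8.34 CPM on average, and neither was called.

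Neutrophils and other leukocytes also carry LCN2, S100A8 and S100A9, and their markers were read beside them. Of 18 leukocyte markers 10 were listed and 5 tested, and 5 of the 5 had a higher mean in RC48, with 1 called. ITGAM, CD3E and CD14 passed the filter only through RC48, so this count carries no weight. The summed level of the list was 22.7 to 23.3 CPM in Control and 29.5 to 49.5 CPM in RC48. ITGAM, an integrin of myeloid cells, went from 0.0966 ± 0.167 to 3.63 ± 0.554 CPM (log2 fold change 5.12, adjusted p = 0.00740, edgeR), and the call was lost without Control replicate 3 (adjusted p = 0.0718, edgeR). All 5 of its Control counts were in replicate 2, and without that library the fitted value was 8.97, which depends on the prior count. CD3E, a T cell marker, was at 0.311 and 0.991 CPM on average (adjusted p = 0.113, edgeR) and was called with the correction for GC content. CD14 was at 0.349 and 0.955 CPM, CD68 at 16.8 and 24.2 CPM and LAPTM5 at 5.24 and 7.13 CPM on average, and these were not called (adjusted p = 0.161, 0.274 and 0.231, edgeR). ITGB2, the partner of ITGAM, had 3 counts in Control and 4 in RC48. PTPRC, which encodes the pan-leukocyte antigen CD45, had 0 counts in Control and 2 in RC48, and CSF3R, a receptor of neutrophils, had 7 and 6. The part of this list in the results was not tested.

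Fibroblast and endothelial markers had 10 of 11 listed and 6 tested by edgeR, with 0 called and 4 at an unadjusted p under 0.05 (median -0.10). COL3A1 was at 280.5 and 411.6 CPM and LUM at 167.6 and 92.2 CPM on average, and they were called under 4 and 7 of 17 alternatives. With the correction for GC content PECAM1 and VWF were called as lower. DCN and PDGFRB, which mark fibroblasts, had 4 counts each in Control and 2 and 3 in RC48. Of the 12 epithelial and luminal markers of the line, all were tested, of which 0 rose and 1 fell (median -0.02). The gene that fell, KRT20, passed the filter only through its Control libraries, so this count carries no weight. KRT20 fell from 1.98 ± 0.0439 to 0.667 ± 0.290 CPM (adjusted p = 0.0489, edgeR), a call lost with library sizes alone and without any one of the Control libraries, and ERBB2, the target of RC48, was at 204.9 and 228.8 CPM on average (adjusted p = 0.519, edgeR).

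**Figure D4:**
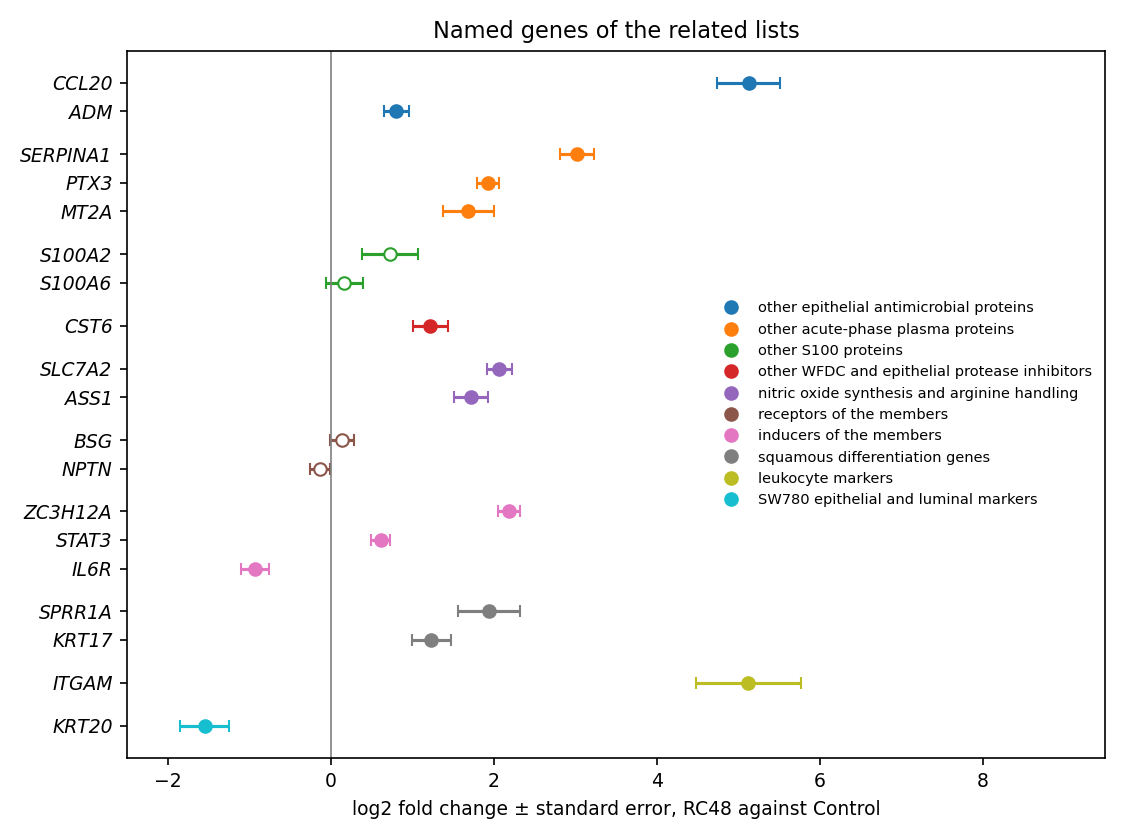
Log2 fold change with standard error, RC48 against Control, for the genes named from the related lists other than the fibroblast and endothelial one, coloured by list, filled where the adjusted p was under 0.05. CCL20 (5.13) and ITGAM (5.12) lie farthest right, IL6R (-0.93) and KRT20 (-1.55) lie left of 0, and S100A2, S100A6, BSG and NPTN are open.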

How the data were processed

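The authors sequenced 3 Control and 3 RC48 libraries of SW780 RNA on a BGI instrument. Reads were cleaned with SOAPnuke by the authors and aligned by Bowtie2, and RSEM gave the gene values. The submitters' processing notes name hg38, and versions and annotation are not given in the sources used here. The deposited estimated counts are not normalized, and 11.7% to 15.0% of genes per library had a value that was not whole. TPM values, deposited by the authors, were used for 5 libraries. TPM of RC48 replicate 2 was not used here.

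Groups followed the sample titles. Counts were rounded, filtered with filterByExpr (minimum count 10, minimum total 15), scaled by TMM and tested with edgeR 4.0.16 in R 4.3.3 (quasi-likelihood, Benjamini-Hochberg over all genes, no covariates). Each library held 16453233 to 17988030 counts. Intervals cover counting error only, and a floor covers that of the Control group only. On simulated data with 198 changed genes tested among 12987, the test called 191, and 11 unchanged genes. The simulation capped the spread between libraries and held no GC trend, so these numbers do not describe the test on the real libraries. Alternatives were DESeq2 1.42.0, limma 3.58.1 on log2(TPM + 1) (the study's own scale) and log2(TPM + 0.1), voom with quality weights, other scalings and filters, a correction for GC content (loess, span 0.3), a replicate block and leaving out each library. GC content came from GENCODE transcripts.

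The 9 genes, the lists and the tests were chosen with earlier results of these data known. Named are the 9 genes. From each list, up to 4 called genes are named by the size of the change, given 1 CPM or more in either group, or the 2 most abundant where none was called. For each called gene at 1 CPM or more, the 3 genes most like it are named. Other genes were named after their values were seen. Sequences came from RefSeq (promoters of 4 of the 9 genes) and GENCODE. Python 3.11.15 with pandas 2.3.3, scipy 1.17.1 and matplotlib 3.10.9 was used for the rest.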

Additional observations from a re-analysis of the deposited data

How the results depend on the processing

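LCN2 and S100A9 kept their direction and their call under all 17 alternatives. Of the 9 genes 4 were called, and this number fell to 2 when only genes with at least 10 counts in every library were tested, since SAA1 and SAA2 then drop out. Leaving out 1 library gave 2 to 4 calls among the 9 genes, with 2 without any one of the Control libraries and 3 without RC48 replicate 3. Calls over all genes depended far more on the setting. Against 288 (258 higher in RC48), there were 744 (536 higher) with DESeq2, 2894 (821 higher) with limma on log2(TPM + 1), 2829 (785 higher) on log2(TPM + 0.1), 8018 (3972 higher) with voom and sample quality weights, 977 (678 higher) with the correction for GC content, and 948 (690 higher) with that correction and no filter, an alternative chosen after seeing the data. Leaving out 1 library gave 68 to 3726 calls, the lowest without Control replicate 3 and the highest without RC48 replicate 2 (1862 higher), and the cause was not tested.

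Libraries with the same replicate number did not deviate together from their group means (Pearson r across genes 0.00204, -0.132 and 0.00478 for numbers 1, 2 and 3). With so few libraries this cannot tell whether they share a culture or a batch. With the replicate block there were 331 calls (277 higher), with the replicate block and the correction for GC content 668 (497 higher), and 4 of the 9 genes were called in both.

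Depth limits SAA1, SAA2, PI3, S100A7, S100A8 and NOS2, which rest on few counts in Control. No outlier check was run, since each group holds 3 libraries.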
